A study of Canis lupus familiaris with 29 samples.

Results

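A pair of chemically different inhibitors of the kinase MEK, U0126 and PD-98059, were set against each other in dog kidney cells that had been grown in collagen and given hepatocyte growth factor (HGF). The comparison rests on 6 of the 29 Affymetrix canine arrays of the series, the 3 that carry the U0126 label and the 3 that carry the PD-98059 label in 3D culture. Probe sets were kept where at least 3 of the 29 arrays reached log2 5, which left 16571 of 42924, Affymetrix controls aside. The cells were MDCK type II, an established epithelial line of dog kidney, so every group stands for 1 cell line. Both inhibitor groups received HGF as well as the inhibitor, and both were cultured in 3D collagen. Beside them stand 4 untreated and 4 HGF-treated 3D arrays without inhibitor, and, in 2D on transwell filters, 4 arrays with HGF and PD-98059 and 3 with HGF and U0126. The sources used here give no dose, treatment time or solvent, so the doses may differ and a difference between them cannot be told apart from a difference in dose.

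HGF binds the receptor tyrosine kinase MET. One branch of its signal runs through RAS, RAF and MEK to the kinase ERK, which drives transcription of early growth genes and of its own phosphatases. MDCK cells in collagen form hollow cysts and respond to HGF with tubule outgrowth, a process that involves matrix proteases and loosening of the epithelium. U0126 and PD-98059 both act on MEK rather than on ERK itself, and cell biologists often use them side by side as a check on each other.

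Values are log2 levels per probe set. Differences are U0126 minus PD-98059 with limma's standard error, so a negative value means a lower level with U0126. A gene is called higher or lower with U0126 where the Benjamini-Hochberg adjusted p was under 0.05 over all 16571 probe sets. Dim means a group mean under log2 5, and a fold that starts from a dim level contains background hybridisation. Standard errors, intervals and p-values use a spread per probe set that the fit pooled over all 29 arrays in 8 groups. They can therefore be larger or smaller than the scatter of the compared arrays alone would give. Nothing in the labels says that arrays of a group came from separate cultures, so part of that spread may be technical. Having 3 arrays in each compared group also limits the precision.

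The 6 arrays were close to one another. Correlations over the tested probe sets ran from 0.987 to 0.997 in the 6 pairs within a group and from 0.980 to 0.990 in the 9 pairs between groups, so the ranges met. The epithelial identity of the line was visible: EPCAM, KRT8, KRT18 and CDH16 were bright, although CDH1 and PAX8 stayed under log2 5 in every array. None of 9 fibroblast and 8 measured blood markers reached log2 5 in either group, and of 8 endothelial markers only FLT1 did (9.05 with U0126, 9.07 with PD-98059). An RNA-quality index, the mean 3′ minus 5′ or middle signal of the ACTB, GAPDH and EEF1A1 controls, was 1.61 ± 0.136 (SD, n = 3) with U0126 and 1.65 ± 0.0246 (SD, n = 3) with PD-98059. The exact two-sided permutation p of that difference was 0.7, where 0.1 is the smallest that 3 against 3 arrays allow. One component of the index did separate the groups: the EEF1A1 3′ minus middle difference was 0.487, 0.433 and 0.694 with U0126 and 0.777, 0.835 and 0.868 with PD-98059, and its part in the results was not tested.

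U0126 left more probe sets lower than higher. Of the 16571, 1462 (8.82%) were lower and 495 (2.99%) were higher with U0126 than with PD-98059. Most differences were small, with a median size of 0.53 on the log2 scale among those that passed, and only 92 lower and 129 higher ones reached 2-fold. Among probe sets that did not pass, 13260 of 14614 had a 95% confidence interval of the difference that lay entirely within 2-fold in both directions. Counted without a model, the 3 U0126 arrays lay below all 3 PD-98059 arrays in 3719 probe sets (22.4%) and above them in 1500 (9.05%). The counts depended on single arrays: without PD-98059 replicate 2 there were 971 lower and 274 higher, without PD-98059 replicate 3 609 and 301, without U0126 replicate 1 780 and 286, and without U0126 replicate 2 the lower ones were 730. The split changed with the scaling too, to 1112 lower and 741 higher after another quantile normalization and to 1279 and 624 after centring each array on its median, and limma's array weights raised it to 3776 and 1671. Leaving out 3D HGF replicates 1 and 4, which are outside the comparison but enter the pooled spread, gave 2055 lower and 739 higher.

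The direction of the difference mostly opposed the HGF response. HGF had raised 4879 probe sets (29.4%) and lowered 5404 (32.6%) in the 8 untreated and HGF-treated 3D arrays, none of which belongs to the comparison of the inhibitors. Among those raised by HGF, 1036 (21.2%) were lower with U0126 than with PD-98059 and 23 (0.471%) were higher. Among those lowered by HGF, 412 (7.62%) were higher with U0126 and 169 (3.13%) lower. Of all probe sets lower with U0126, 70.9% had been raised by HGF, and of all higher ones, 83.2% had been lowered by it. The HGF and inhibitor calls are not fully independent, because both use the fit's shared estimate of spread per probe set. Against HGF alone, U0126 raised 4214 probe sets (25.4%) and lowered 3952 (23.8%), and PD-98059 raised 4408 (26.6%) and lowered 2557 (15.4%), all 4 counts sharing the same 4 HGF arrays. The split for PD-98059 turned with the scaling, to 3485 raised and 3954 lowered after median centring and to 3945 and 3578 after quantile normalization. The count of 1036 was 475 without PD-98059 replicate 3, 599 without U0126 replicate 1 and 527 without U0126 replicate 2, and the count of 412 was 232, 267 and 254 without PD-98059 replicate 2, PD-98059 replicate 3 and U0126 replicate 1.

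**Figure D1:**
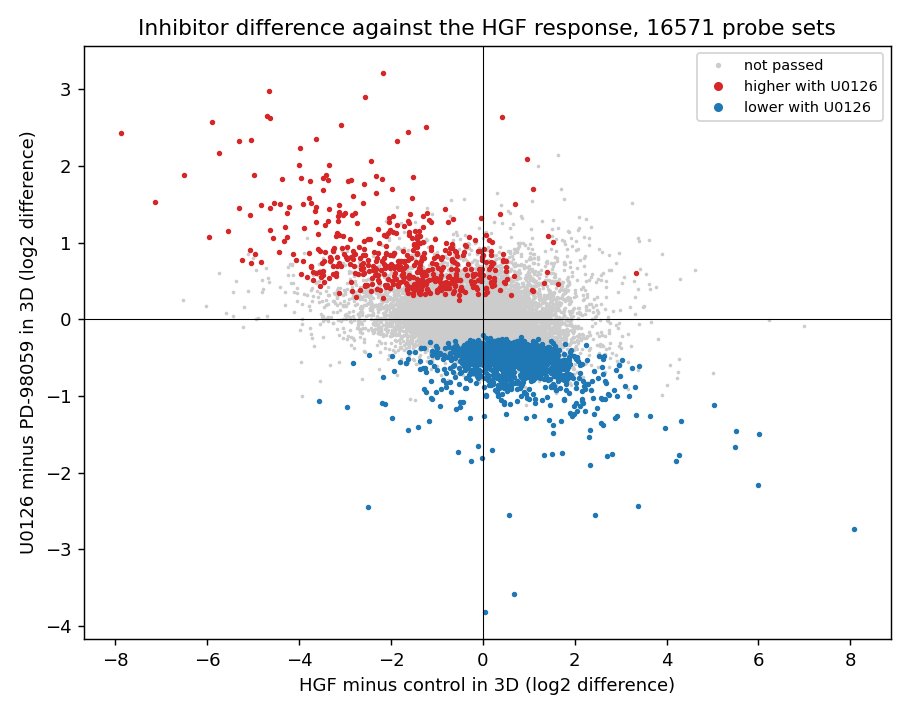
Each of the 16571 points is a probe set, with the HGF minus control difference in 3D on the horizontal axis and the U0126 minus PD-98059 difference in 3D on the vertical axis, both in log2 units; red marks probe sets higher and blue lower with U0126 at an adjusted p under 0.05, grey the rest. Blue points lie mostly to the right of 0, among probe sets that HGF raised, and red points mostly to the left.

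Most tested genes that report ERK activity were lower with U0126. In a list of ERK pathway output genes, 6 of 9 tested genes passed, all lower, with a list median of -0.70, while over 7052 genes with 1 probe set each 9.9% were lower, 3.11% higher and the median was -0.08. An unadjusted p under 0.05 was reached by 1988 of those 7052 genes (28.2%), the share against which the unadjusted counts of other lists are to be read. Counts of passing genes in the other lists are likewise to be read against the 9.9% and 3.11%. DUSP6, a phosphatase that switches off ERK and is itself an ERK target, measured 13.33, 13.36 and 13.43 in the PD-98059 arrays and 12.48, 12.64 and 12.77 in the U0126 arrays. Its groups did not overlap, and the difference was -0.74 ± 0.11 (1.67-fold, adjusted p = 3.62e-05). The untreated level was 12.89 ± 0.12 (SD, n = 4), so the U0126 mean lay under it and the PD-98059 mean above it. DUSP5, a nuclear ERK phosphatase, stood at 8.19, 8.33 and 8.49 with PD-98059 and at 7.36, 7.34 and 7.10 with U0126. That made it 2.09-fold lower with U0126 (-1.07 ± 0.23, adjusted p = 0.00281), again with a U0126 mean under the untreated 7.77.

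FOS, the immediate early transcription factor, read 12.89, 13.03 and 13.30 with PD-98059 and 11.91, 11.91 and 12.23 with U0126. The difference of -1.06 ± 0.11 had an adjusted p of 3.39e-07, and a further probe set of FOS also passed, at -1.23. MYC was tight in both groups, 8.29 to 8.34 with PD-98059 and 7.59 to 7.63 with U0126, for a difference of -0.70 ± 0.15 (adjusted p = 0.00273). The G1 cyclin CCND1 measured 11.78, 12.09 and 12.07 with PD-98059 and 11.39, 11.45 and 11.73 with U0126 (-0.46 ± 0.13, adjusted p = 0.0265), and its less bright probe set was lower too (adjusted p = 0.0039). PHLDA1 differed by -0.80 ± 0.24 (adjusted p = 0.0271), with 1 overlapping array. The calls of CCND1 and PHLDA1 were lost when any of several single arrays was left out, and 4 to 6 of the list passed over those fits. EGR1 (0.03, 95% interval -0.62 to 0.67), EPHA2 (-0.05, -0.86 to 0.76) and IER3 (-0.15, -0.55 to 0.24) did not pass, and EGR1 and EPHA2 were dim in both groups. JUN, an AP-1 partner of FOS, was higher with U0126, 2.01-fold (adjusted p = 0.0167), from 9.56, 8.73 and 8.99 with PD-98059 to 10.48, 9.39 and 10.42 with U0126, and its arrays overlapped. In the list of immediate early genes, 1 of 9 tested was higher and 2 were lower, with a median of -0.15. The call of JUN was lost without any one of 4 arrays of the comparison.

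Among receptors, ligands and adaptors upstream of MEK, none of the 10 tested genes passed with limma, and 2 had an unadjusted p under 0.05. MET itself differed by -0.37 (95% interval -0.76 to 0.02, adjusted p = 0.217). EREG, an EGF receptor ligand that HGF raised to 7.02, was dim with both compounds, at 4.84, 3.90 and 3.23 with PD-98059 and 3.36, 3.02 and 3.02 with U0126 (-0.86, interval -1.46 to -0.26, adjusted p = 0.0551).

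Matrix proteases and their inhibitors held some of the largest differences, and 4 of 13 tested genes of that list were lower with U0126, with a list median of -0.17. Among all 7052 genes 9.9% were lower, with a median of -0.08. MMP13, a collagenase that cleaves fibrillar collagen, has 2 tested probe sets. The brighter one measured 11.06, 10.58 and 11.01 with PD-98059 and 8.21, 8.16 and 8.63 with U0126, a 5.86-fold lower level (-2.55 ± 0.40, adjusted p = 0.000101). The other fell from 6.87 ± 0.45 (SD, n = 3) with PD-98059 to a dim 3.29 ± 0.51 (SD, n = 3) with U0126 (-3.59 ± 0.32, adjusted p = 2.83e-08). Without inhibitor the brighter probe set stood at 12.51 in untreated and 13.09 in HGF-treated 3D cells, so its level was below the untreated one with both compounds.

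TIMP1, which binds and blocks metalloproteinases, measured 13.66 ± 0.27 (SD, n = 4) with HGF alone and 5.59 ± 0.55 (SD, n = 4) untreated. It stood at 6.97, 7.36 and 7.33 with PD-98059 and at 4.80, 4.97 and 3.68 with U0126 (-2.74 ± 0.32, adjusted p = 2.08e-06), so the PD-98059 mean lay above the untreated mean and the dim U0126 mean below it. SERPINE2, an inhibitor of serine proteases, was 12.04 ± 0.22 with PD-98059 and 11.18 ± 0.29 with U0126 (SD, n = 3 each; -0.86 ± 0.14, adjusted p = 0.000224), while its less bright probe sets, at -0.76 and -0.70, did not pass. The gelatinase MMP9 measured 8.65, 8.84 and 9.15 with PD-98059 and 7.59, 7.67 and 8.12 with U0126 (-1.09 ± 0.28, adjusted p = 0.0124), a call that was lost without PD-98059 replicate 3, U0126 replicate 1 or U0126 replicate 2. MMP1, the interstitial collagenase, stood at 10.28 with HGF alone and at dim levels with both compounds, 3.38 with PD-98059 and 3.30 with U0126. PLAU, the urokinase, differed by 0.03 (95% interval -0.56 to 0.62).

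Of 8 tested mesenchymal markers, 2 were lower with U0126, where 9.9% of all 7052 genes were lower. SNAI2, a repressor of epithelial genes, measured 10.94, 11.10 and 11.37 with PD-98059 and 9.25, 9.27 and 9.55 with U0126, a 3.44-fold lower level (-1.78 ± 0.14, adjusted p = 6.69e-09). Its untreated level was 10.20 ± 0.19 (SD, n = 4), again between the compounds. S100A4, a calcium-binding protein linked to motility, differed by -1.15 ± 0.14 (adjusted p = 5.26e-06), although HGF had lowered it slightly. VIM (-0.20, 95% interval -0.43 to 0.02) and ACTA2 (0.36, interval -0.55 to 1.26) did not pass. Summed over all 12 listed markers, log2 levels ran from 83.0 to 84.2 with PD-98059 and from 79.4 to 81.6 with U0126. SNAI2 and S100A4, the 2 that passed, made up most of that gap, and ACTA2 went the other way. Only 6 of the 12 reached log2 5 as a mean in either group.

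**Figure D2:**
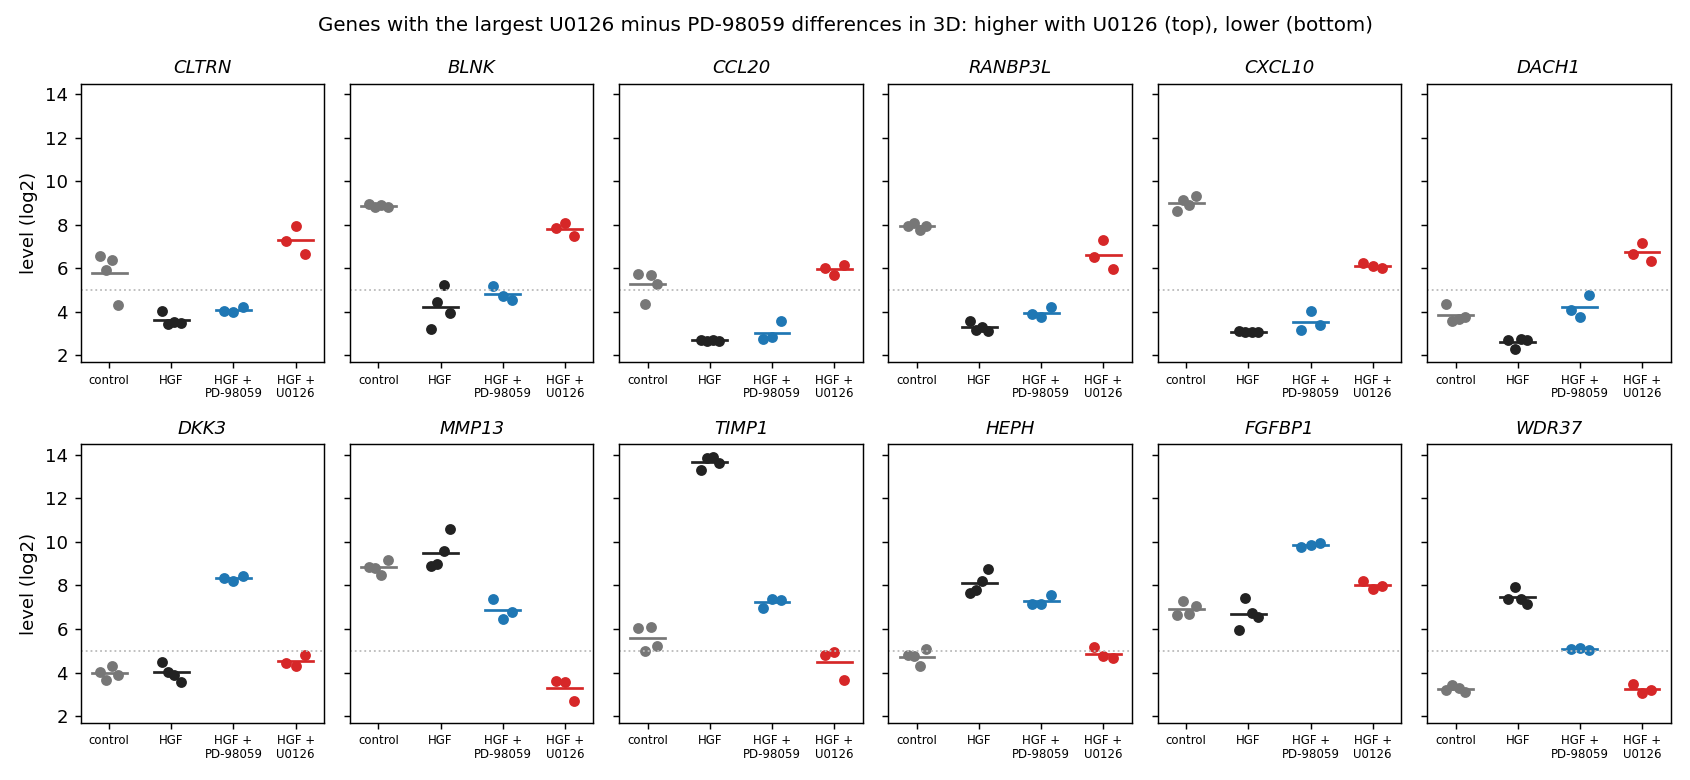
Log2 level in each 3D array, one point per array and a line at the group mean, for the 6 genes with the largest differences higher with U0126 (top row) and lower with U0126 (bottom row); the dotted line marks log2 5, below which a level is called dim. In every panel the 3 U0126 arrays (red) lie apart from the 3 PD-98059 arrays (blue), which was a condition for choosing the genes. In the DKK3 and FGFBP1 panels the PD-98059 arrays lie above the arrays of the 3 other groups.

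Chemokine genes were among those with the largest rises with U0126, although CCL17 went the other way, at -1.40 (adjusted p = 0.00135). In the list of inflammatory chemokines and cytokines 4 of 13 tested genes were higher and 1 was lower, with a median of 0.21. CXCL8, a neutrophil chemoattractant, measured 7.82, 8.47 and 8.97 with PD-98059 and 10.75, 10.68 and 11.13 with U0126. The difference was 2.43 ± 0.19 (5.39-fold, adjusted p = 5.64e-09). Its level was 11.03 ± 0.30 in untreated cells and a dim 3.15 ± 0.17 with HGF alone (SD, n = 4 each), so the U0126 mean of 10.85 was close to the untreated mean. CXCL10, a chemokine for T cells, was dim with PD-98059, at 3.18, 4.05 and 3.41, and stood at 6.23, 6.10 and 6.01 with U0126 (2.57 ± 0.16, adjusted p = 1.82e-10), still below the untreated 8.98. NFKBIA, the inhibitor of NF-kB that NF-kB itself induces, differed by 0.69 ± 0.11 (adjusted p = 0.000111), and BIRC3, an inhibitor of apoptosis, by 0.56 ± 0.17 (adjusted p = 0.033).

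CCL20 had 2 tested probe sets that differed in size. One was dim with PD-98059, at 2.74, 2.85 and 3.57, and reached 6.02, 5.70 and 6.15 with U0126 (2.90 ± 0.23, adjusted p = 6.74e-09), while the brighter one, which counts in the list, differed by 0.53 and did not pass (adjusted p = 0.0684). The monocyte chemoattractant CCL2 stood at 12.62, 12.77 and 12.85 with PD-98059 and 13.19, 13.20 and 13.66 with U0126, and did not pass (0.60, 95% interval 0.00 to 1.20, adjusted p = 0.195). PTGS2, the inducible prostaglandin synthase that HGF raised, was the lower member, at -0.86 ± 0.27 (adjusted p = 0.0362), a call lost when any of 5 single arrays was left out. None of 12 tested interferon response genes passed with limma, and 2 had an unadjusted p under 0.05.

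Kidney tubule and junction lists had few calls, 1 of 9 and 1 of 18 tested genes, both higher, with medians of 0.03 and -0.02. CLTRN, or collectrin, which helps amino acid transporters to the apical membrane of the proximal tubule, measured 4.03, 3.97 and 4.21 with PD-98059 and 7.23, 7.94 and 6.68 with U0126. That was the largest rise, 9.27-fold from a dim level (3.21 ± 0.36, adjusted p = 9.65e-07), and its other probe set gave 0.57 and did not pass (adjusted p = 0.192). It was the only one of 9 tested kidney tubule genes that passed. PDZK1, a scaffold of apical transporters, stood at 10.35 ± 0.26 with PD-98059 and 10.85 ± 0.16 with U0126 (SD, n = 3 each), with a difference of 0.50 (95% interval 0.03 to 0.98, adjusted p = 0.17), and its less bright probe set passed at 1.08 (adjusted p = 0.0327). Both groups of PDZK1 lay far above the 4.69 of HGF alone.

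MUC20, a mucin known to bind MET, measured 2.83, 4.71 and 4.65 with PD-98059 and 6.33, 5.81 and 6.10 with U0126 (2.01 ± 0.33, adjusted p = 0.000164), and its second probe set gave 1.69. The call of MUC20 was lost when only the arrays of the compared groups were fitted, with or without a replicate block, where the highest adjusted p was 0.0604. DCDC2, a microtubule-binding protein of the cilium, stood at 5.39, 5.42 and 4.43 with PD-98059 and 7.54, 7.22 and 7.44 with U0126 (2.32 ± 0.36, adjusted p = 0.000105). Both lay under their untreated level with PD-98059, and only DCDC2 lay above it with U0126. CLDN2, a pore-forming claudin, was the single gene of 18 tested junction genes that passed (0.83 ± 0.23, adjusted p = 0.0189), and it did not pass without PD-98059 replicate 1, U0126 replicate 1 or U0126 replicate 2. CDH16, the kidney-specific cadherin, differed by 0.51 (95% interval 0.14 to 0.87, adjusted p = 0.0657).

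The remaining genes of the 12 largest rises covered signalling adaptors and regulators. BLNK, an adaptor of immune receptor signalling, measured 5.20, 4.73 and 4.54 with PD-98059 and 7.87, 8.07 and 7.47 with U0126 (2.98 ± 0.29, adjusted p = 9.8e-08). ARHGAP24, which inactivates the GTPase Rac, stood at 6.04, 5.41 and 5.24 with PD-98059 and 7.53, 7.86 and 7.80 with U0126 (2.16 ± 0.21, adjusted p = 1.16e-07), with a further probe set at 0.04 that did not pass. RANBP3L, a nuclear export factor, differed by 2.63 ± 0.22 and by 1.89 ± 0.16 in its 2 probe sets. FILIP1L (2.44 and 1.37) and DHDH (2.24 and 1.28) likewise passed in both of their probe sets. BLNK, ARHGAP24 and RANBP3L had all been lowered by HGF, to 4.21, 2.75 and 3.29, and their U0126 means of 7.80, 7.73 and 6.59 stayed under the untreated 8.87, 8.49 and 7.93. DACH1, a transcriptional cofactor, was dim in untreated cells (3.85), with HGF alone (2.61) and with PD-98059 (4.09, 3.79 and 4.79), and reached 6.67, 7.15 and 6.35 with U0126 (2.50 ± 0.26, adjusted p = 3.49e-07).

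Of 11 tested actin cytoskeleton genes and targets of the mechanosensitive cofactor YAP, the YAP targets ANKRD1, CCN1 and CCN2 were higher with U0126, and the 8 others did not pass. ANKRD1 was dim in both groups, at 2.52, 2.47 and 2.53 with PD-98059 and 5.26, 5.04 and 4.25 with U0126 (2.35 ± 0.26, adjusted p = 8.07e-07). CCN2 measured 8.69, 8.84 and 8.93 with PD-98059 and 9.46, 9.44 and 9.42 with U0126 (0.62 ± 0.16, adjusted p = 0.0127). CCN1 differed by 0.80 ± 0.22 (adjusted p = 0.0189) with overlapping arrays, and its call was lost without any one of 4 arrays.

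Some genes separated the compounds without following the HGF response. DKK3, a secreted protein of the Dickkopf family, had the largest difference of all named genes. It measured 8.34, 8.23 and 8.43 with PD-98059 and a dim 4.42, 4.32 and 4.79 with U0126, 14.1-fold lower (-3.82 ± 0.27, adjusted p = 6.19e-10). It was dim in untreated (3.97 ± 0.26) and HGF-treated 3D cells (4.01 ± 0.38; SD, n = 4 each), so only the PD-98059 group was bright. FGFBP1, a carrier of fibroblast growth factors, stood at 9.75, 9.85 and 9.97 with PD-98059 and 8.23, 7.83 and 7.95 with U0126 (-1.85 ± 0.39, adjusted p = 0.00244), and both groups were above the untreated 6.92 and the HGF level of 6.67. MGST1, a membrane glutathione transferase, was dim without inhibitor, at 4.07 untreated and 2.45 with HGF, and measured 9.44, 9.90 and 9.88 with PD-98059 and 8.01, 9.01 and 7.88 with U0126 (-1.44 ± 0.26, adjusted p = 0.000532; other probe set -1.29). TSPAN15, a tetraspanin partner of the sheddase ADAM10, stood at 7.36 ± 0.03 with PD-98059 and 5.71 ± 0.11 with U0126 (SD, n = 3 each; -1.65 ± 0.20, adjusted p = 2.34e-06), on either side of the untreated 6.82.

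Other genes lower with U0126 had been raised by HGF. HEPH, a ferroxidase of iron export, measured 7.15, 7.16 and 7.58 with PD-98059 and 5.16, 4.76 and 4.65 with U0126 (-2.44 ± 0.23, adjusted p = 9.33e-08). Its U0126 mean of 4.86 lay near the untreated 4.72, and its PD-98059 mean of 7.30 nearer the 8.11 of HGF alone. MALL, a membrane raft protein, went from 5.65 ± 0.29 to a dim 3.88 ± 0.24 (SD, n = 3 each; -1.77 ± 0.16, adjusted p = 4.9e-08). PLA2G7, which degrades platelet-activating factor, differed by -1.48 ± 0.18, the carbonyl reductase CBR3 by -1.44 ± 0.22 and IL18BP, the decoy of interleukin-18, by -1.11 ± 0.22. HRAS, a small GTPase upstream of RAF, stood at 4.89, 6.21 and 5.80 with PD-98059 and at a dim 4.32, 4.22 and 3.79 with U0126 (-1.53 ± 0.33, adjusted p = 0.00313; other probe set -0.97). WDR37, a WD-repeat protein, differed by -1.84 ± 0.34, -0.75 and -0.12 in 3 probe sets, of which the last did not pass. CCL17 and the urate transporter SLC2A9 had been lowered by HGF and were lower with U0126 than with PD-98059, by -1.40 ± 0.28 and -1.17 ± 0.17.

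Against that pattern, 23 probe sets raised by HGF were higher with U0126. The small heat shock protein HSPB8 (0.76 ± 0.12, adjusted p = 9.27e-05) and C21H11orf54 (0.85 ± 0.20, adjusted p = 0.00565) led them among genes that kept their call over all settings tried. Their further probe sets did not pass, and 1 of C21H11orf54 had been lowered by HGF (-0.54, adjusted p = 0.00049), while that of HSPB8 had not passed for HGF (0.24, adjusted p = 0.138). The endocytic adaptor DAB2 (0.77 ± 0.20), the phospholipase LIPH (0.68 ± 0.19) and the methyltransferase subunit ASH2L (0.63 ± 0.18) lost theirs when single arrays of either group were left out.

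The genes of cholesterol synthesis were mostly lower with U0126. Of 13 tested genes 10 were lower and the other 3 did not pass, with a list median of -0.59. MVD, which makes isopentenyl diphosphate, measured 10.11, 10.14 and 10.33 with PD-98059 and 9.01, 9.14 and 9.13 with U0126 (-1.10 ± 0.21, adjusted p = 0.00123). DHCR7, the last enzyme of one branch, stood at 7.07, 6.97 and 7.52 with PD-98059 and 6.06, 6.46 and 6.37 with U0126 (-0.89 ± 0.17, adjusted p = 0.000851). INSIG1, a sterol sensor of the pathway, was 10.29 ± 0.09 with PD-98059 and 9.45 ± 0.08 with U0126 (SD, n = 3 each; -0.84 ± 0.15, adjusted p = 0.000421), near the untreated 9.41, while its less bright probe set gave -0.31 and did not pass. FDFT1 (-0.75 ± 0.09), MSMO1 (-0.69 ± 0.11), FDPS (-0.65 ± 0.11) and CYP51A1 (-0.59 ± 0.08) were the next in size of the bright enzymes, and HMGCS1 (-0.36), MVK (0.02) and PMVK (0.12) did not pass. Leaving out 1 array at a time gave 7 to 10 lower genes.

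Some replication genes were lower with U0126. Of 19 tested DNA replication genes 4 were lower with U0126, with a median of -0.38, and 12 had an unadjusted p under 0.05. Over all 7052 genes these shares were 9.9% and 28.2%, and the median was -0.08. Thymidylate synthase TYMS measured 13.64, 13.52 and 13.66 with PD-98059 and 12.89, 12.70 and 13.02 with U0126 (-0.74 ± 0.10, adjusted p = 2.82e-05). Cyclin E1, CCNE1, differed by -0.71 ± 0.13 (adjusted p = 0.000521) and the helicase subunit MCM7 by -0.63 ± 0.13 (adjusted p = 0.00268). The other probe set of MCM7 gave -0.32 and did not pass (adjusted p = 0.322). Of 16 tested mitosis genes none passed with limma, 3 had an unadjusted p under 0.05, and the median was -0.12. CDKN1A, the cyclin-dependent kinase inhibitor p21, was 9.51 ± 0.04 with PD-98059 and 9.66 ± 0.26 with U0126 (SD, n = 3 each; 0.14, 95% interval -0.31 to 0.60). The p53-induced kinase PLK2 was higher by 1.03 ± 0.19 (adjusted p = 0.000655), the only one of 9 tested p53 targets and kinase inhibitors that passed.

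**Figure D3:**
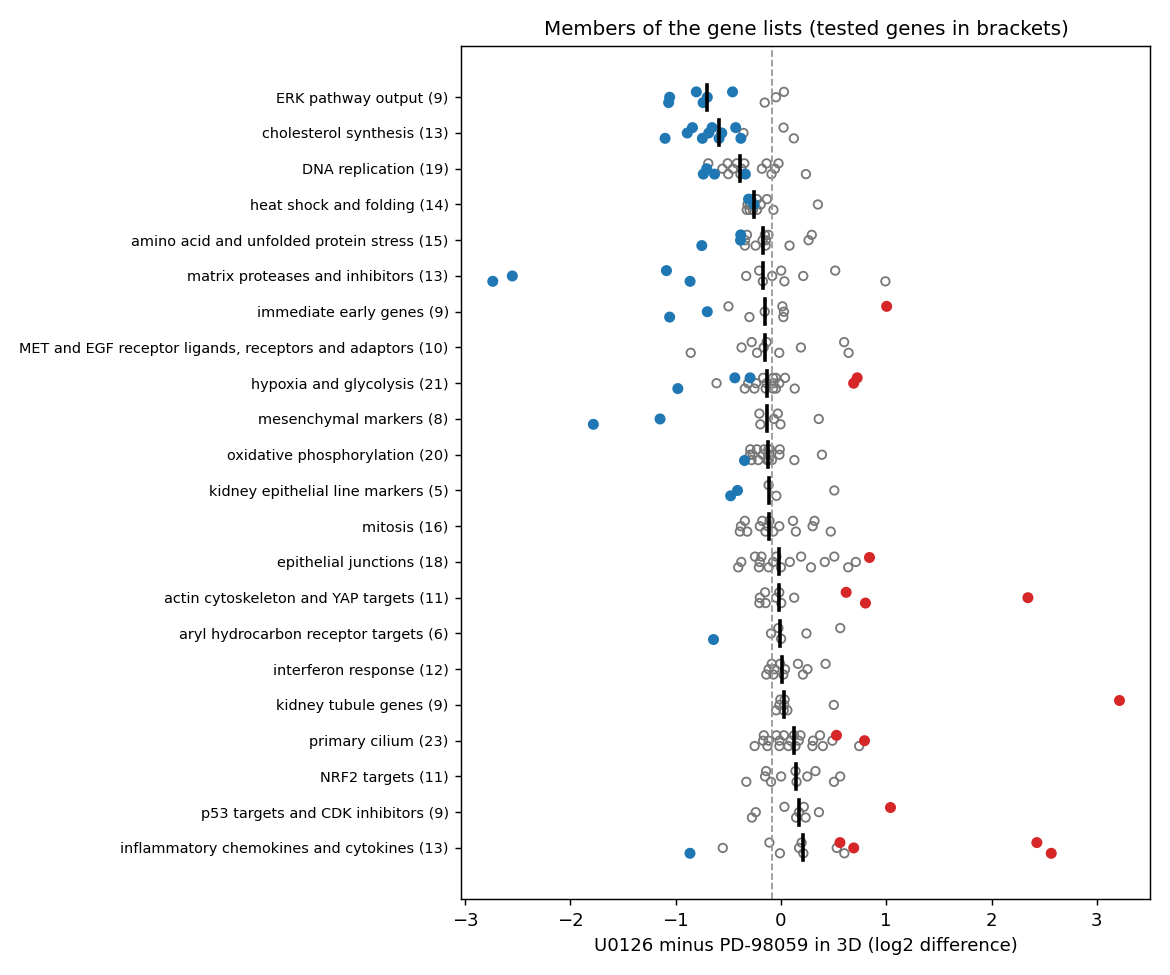
U0126 minus PD-98059 differences in 3D (log2, horizontal axis) for the tested genes of each list (rows, number of genes in brackets); red circles passed and were higher with U0126, blue circles passed and were lower, open circles did not pass, the black bar is the list median and the dashed line the median over 7052 genes. The ERK output list (median -0.70) and the cholesterol list (-0.59) lie farthest to the left, and the lowest single values belong to TIMP1 and MMP13 in the matrix list.

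SDF2L1, a chaperone partner of the endoplasmic reticulum, was lower by -0.75 ± 0.11 (adjusted p = 4.09e-05) in a list of 15 amino acid and unfolded protein stress genes, of which 3 were lower. The glycolytic activator PFKFB3 measured 6.52, 6.46 and 6.58 with PD-98059 and 5.25, 5.42 and 5.94 with U0126 (-0.98 ± 0.20, adjusted p = 0.00186), and its less bright probe set gave 0.41 and did not pass. In the list of 21 hypoxia and glycolysis genes it was 1 of 3 lower ones, with 2 higher, ADM (0.69 ± 0.17) and PFKL (0.72 ± 0.17, not matched by its 3 other probe sets). Of 14 heat shock and folding genes 2 were lower, by -0.31 for HSPE1 and -0.25 for HSP90AA1. These small counts stand beside 698 lower (9.9%) and 219 higher (3.11%) among all 7052 genes. Among 20 oxidative phosphorylation genes, UQCRC1 (-0.35) was the only one that passed, and among 23 primary cilium genes RPGRIP1L (0.79, dim in both groups) and IFT172 (0.53) did. In the probe set that counts in its list, each of these genes except SDF2L1 and PFKFB3 lost its call without some single array of the comparison. The other probe set of IFT172 also passed, at 0.75 (adjusted p = 0.000816). The keratins KRT18 (-0.48 ± 0.10) and KRT8 (-0.41 ± 0.11) were lower with U0126, and KRT8 lost its call without PD-98059 replicate 3 or U0126 replicate 2.

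Genes known to answer to aromatic or electrophilic compounds were set apart as a list. CYP1B1, a target of the aryl hydrocarbon receptor, measured 14.08, 13.98 and 14.05 with PD-98059 and 14.27, 13.46 and 14.31 with U0126 (-0.02, 95% interval -0.50 to 0.45). Both groups were above the 12.37 of untreated and 11.93 of HGF-treated cells. TIPARP (0.56, interval -0.34 to 1.47) did not pass, and the receptor gene AHR itself was lower with U0126 (-0.64 ± 0.14, adjusted p = 0.00275). NQO1, a quinone reductase under NRF2, stood at 14.14 ± 0.03 with PD-98059 and 14.05 ± 0.24 with U0126 (SD, n = 3 each; -0.09, interval -0.34 to 0.15), and none of 11 tested NRF2 targets passed with limma, with 3 at an unadjusted p under 0.05.

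In flat culture the same compounds gave 140 probe sets (0.845%) higher and 129 (0.778%) lower with U0126, on 7 arrays that the 3D comparison does not share. Both comparisons do use the fit's shared estimate of spread per probe set. Of the 495 probe sets higher in 3D, 58 were also higher in 2D, which is 11.7% of the 3D and 41.4% of the 2D calls, and 3 were lower. Of the 1462 lower in 3D, 63 were lower in 2D, 4.31% of the 3D and 48.8% of the 2D calls. The sign in 2D was the same in 73.5% and 73.6% of them, where 46.4% of all tested probe sets were above and 53.6% below 0 in 2D. A test of the 3D minus the 2D difference itself passed as higher in 98 probe sets (0.591%) and as lower in 187 (1.13%). The lower count ran from 78 without 3D PD-98059 replicate 3 to 385 without 2D PD-98059 replicate 4.

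DKK3 (-3.13), FGFBP1 (-2.27), HEPH (-1.92), TSPAN15 (-1.11), SNAI2 (-1.09), S100A4 (-1.05), DHCR7 (-0.94) and PLK2 (0.86) passed in 2D in the same direction as in 3D, and the difference between cultures did not pass for any of these 8. FOS (-0.57) and DUSP6 (-0.54) also passed in 2D, at a smaller size, with an adjusted p for the difference between cultures of 0.0972 and 0.618. For the 3D value of CLTRN the difference between cultures was 2.74 (adjusted p = 0.00241) and for BLNK 2.51 (adjusted p = 0.000554). CXCL10 (2.60), CXCL8 (2.46) and the dimmer probe set of CCL20 (2.90) differed between cultures too, all 3 of them dim in both 2D inhibitor groups. The other probe sets did not pass for the difference between cultures, at 0.34 for the brighter one of CCL20 (adjusted p = 0.631) and 0.07 for that of CLTRN (adjusted p = 0.973). On the lower side TIMP1 was 0.71 in 2D and -2.74 in 3D, a difference of -3.44 (adjusted p = 5.02e-05). The dimmer probe set of MMP13 differed by -3.62, whereas the brighter one was -1.36 in 2D and did not pass for the difference (-1.19, adjusted p = 0.317). PFKFB3 (-1.43), IL18BP (-1.39) and WDR37 (-1.85) also passed, as did NFKBIA on the higher side at 0.95 (adjusted p = 0.000554). CDKN1A, which did not pass in 3D, was higher with U0126 in 2D (0.85, adjusted p = 0.0319), and the difference between cultures did not pass (adjusted p = 0.281).

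**Figure D4:**
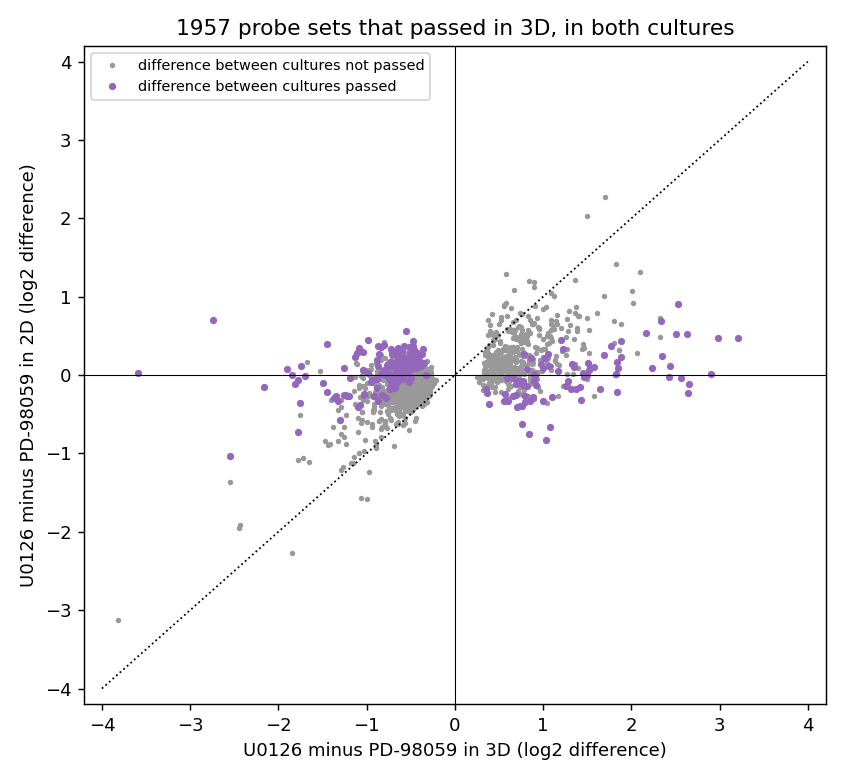
U0126 minus PD-98059 in 3D (horizontal axis) against the same difference in 2D (vertical axis), both log2, for the 1957 probe sets that passed in 3D; purple points passed the test of the difference between cultures, grey points did not, and the dotted line marks equal values. Most points lie closer to 0 in 2D than in 3D, with DKK3 at the lower left near the line; selection on the 3D value alone places points away from 0 on the horizontal axis.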

How the data were processed

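Total RNA of MDCK cells was labelled with biotin and hybridised to canine Affymetrix arrays, per the labels' protocols. The authors deposited 1 log2 value per probe set and array, and these were taken unchanged. The submitters' processing notes name GCRMA, MAS5, Partek 6.6 and Affymetrix Expression Console 1.1 without saying what each did. Genome build and sequences were not used here. Gene symbols come from the platform's annotation table, updated by gene identifier; 12186 of the 16571 tested probe sets carry 1 symbol.

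limma 3.58.1 in R 4.3.3 fitted the means of 8 groups over all 29 arrays (lmFit, 21 residual degrees of freedom), then eBayes with a variance trend. Tests were two-sided, with Benjamini-Hochberg adjustment over all 16571 probe sets within each of 6 contrasts. The contrasts of each inhibitor with HGF alone share the 4 HGF arrays and were not used as evidence for each other. The 25 gene lists use the brightest probe set of a gene and are described by counts and medians. Members and lists were chosen with earlier results of these data known. Named genes are the 12 largest differences in each direction (passed, 1 symbol, bright in 1 group, arrays apart), the 5 largest for each HGF class and for the difference between cultures, up to 3 genes per list and direction, and a fixed set. Of the fixed set CYP1A1 had no probe set with a single symbol, and HMOX1 stayed at 3.35 or less. FDFT1, MSMO1, FDPS, CYP51A1, HMGCS1, MVK, PMVK and BIRC3 are list members named after their values were seen.

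Tested on simulated data for the contrast of the inhibitors in 3D, with 16571 probe sets, the fit recovered 46.3%, 77.6% and 98.5% of true log2 differences of 0.5, 1 and 2, with 4.52% false calls. The simulation changed 67, 67 and 66 probe sets by these sizes and drew normal noise independently for each array. Its rates may not hold for the real data, where 1957 probe sets passed. Alternatives were no filter, a filter at log2 6, no variance trend, fewer arrays in the fit, repeated quantile normalization, median centring, array weights, a block on replicate number, the RNA-quality index as a covariate, a 2-fold threshold, mean probe sets for lists, and left-out arrays. Leaving out PD-98059 replicate 1 and U0126 replicate 2 together, each the farthest in its group from the mean, was chosen after seeing the data.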

Additional observations from a re-analysis of the deposited data

Results flagged for a closer look

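Groups of 4 arrays were examined for a single array far from the rest, 53 times in all. The values were the RNA-quality index and, in untreated and HGF-treated 3D cells, the levels of the genes with the largest differences. In 4 examinations an array stood apart, where chance gives about 1 in 20 for independent ones. The genes share the same arrays, so their examinations are not independent. All 4 were 3D HGF arrays: CLTRN at 4.06, DACH1 at 2.28, CXCL8 at 3.40 and ARHGAP24 at 3.25, every value dim. Groups of 3, both inhibitor groups in 3D among them, were not examined in this way.

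The U0126 minus PD-98059 difference was not the same in both cultures for 98 probe sets with a higher and 187 with a lower value in 3D. The 3D minus 2D values of the genes with the largest such differences were 2.74 for CLTRN, 2.51 for BLNK, 2.90 for CCL20, 2.60 for CXCL10 and 2.46 for CXCL8 on the higher side. Further probe sets of CCL20 (0.34) and CLTRN (0.07) did not pass. They were -3.62 for MMP13, -3.44 for TIMP1, -1.85 for WDR37, -1.43 for PFKFB3 and -1.39 for IL18BP on the lower side. Whether doses or treatment times were equal in both cultures was not tested.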

How the results depend on the processing

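No named probe set that passed in 3D changed its direction in the settings tried, while PLAU, CYP1B1, NQO1 and EGR1, which did not pass, had values on both sides of 0. In all, 49 of the 74 named probe sets that passed in 3D passed in every one of up to 19 settings, while 5 of 16 that did not pass gained a call in at least 1. Most named probe sets were chosen by their values in these same arrays, so stable directions and calls are partly built in. Counts are given as higher and lower with U0126. For the contrast in 3D they were 310 and 921 in the 14 arrays of 3D culture; the lower count was 971 without a filter, 926 with the compared groups alone and without the 2 arrays farthest from their means there were 558 and 817. For probe sets that HGF raised and U0126 left lower, the count was 671 without a filter, 654 with the compared groups alone, 680 in the 14 arrays, 555 without the 2 farthest arrays and 2012 with array weights. For those HGF lowered and U0126 left higher it was 268 in the 14 arrays and 843 with array weights, which gave 1671 and 3776 in 3D, 276 and 243 in 2D and 418 and 1306 for the difference between cultures. At 2-fold or more the counts were 129 and 92 in 3D, 27 and 32 in 2D, 40 lower for the difference, 58 and 113 in both HGF classes, 1639 and 2340 for HGF, 1668 and 921 for U0126 against HGF and 1430 and 635 for PD-98059 against HGF, with 2 ERK output, 1 cholesterol and 2 chemokine genes. In 2D they were 32 and 37 with the compared groups alone, 253 and 241 after quantile normalization, 230 and 241 with the RNA-quality covariate, 217 and 221 without 3D HGF replicates 1 and 4, and the lower count was 197 after median centring. The difference between cultures gave 116 lower without a filter, 178 higher after quantile normalization, 193 and 411 with the covariate and 181 and 409 without 3D HGF replicates 1 and 4. HGF raised 8717 without a filter, and PD-98059 against HGF gave 2869 and 1496 with the compared groups alone and 3954 lower after median centring. Leaving out 1 array at a time gave 274 to 529 and 609 to 1614 in 3D, 475 to 1220 and 232 to 516 in the HGF classes, 75 to 167 and 70 to 208 in 2D, and 66 to 128 and 78 to 385 for the difference. Without 3D HGF replicates 1 and 4 the counts were 739 and 2055 in 3D, and 1378 and 571 in the HGF classes. Their mean absolute deviations from the group means were 0.311 and 0.268, against 0.193 and 0.167 for HGF replicates 2 and 3. Their RNA-quality indices were 2.46 and 1.09, against 1.73 and 1.42. Causes of these shifts were not tested.

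Deviations of same-numbered U0126 and PD-98059 arrays correlated at 0.401, 0.271 and 0.0127, and those of differently numbered ones at -0.401 to 0.298. Whether replicate numbers pair the arrays was not tested, and the main fit did not use them. Fitted to the compared groups alone without a block, the counts in 3D were 361 higher and 926 lower. With the replicate block over 29 arrays the counts in 3D were 468 and 1371. With the replicate block in the compared groups alone they were 476 and 1313 in 3D, 0 and 0 in 2D (limma; 1605 at an unadjusted p under 0.05), 172 and 779 for the difference between cultures and 2084 and 1188 for PD-98059 against HGF. As limits, the fit over all 29 arrays, 3 in each 3D inhibitor group, recovered 46.3% of simulated differences of 0.5. Dim levels hold background signal, and the sources used here give no doses.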
